A study of Homo sapiens with 6 samples.

Results

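The genes of the nuclear transport machinery were followed in D283 Med cells, a human medulloblastoma line of the Group 3 subtype with an amplified MYC gene. They were chosen by symbol among the protein-coding genes: every nucleoporin gene named NUP with a number, every importin, transportin and exportin gene named KPNA, KPNB, IPO, TNPO or XPO, and NDC1, POM121, TPR, RANBP2, RAE1, SEH1L, SEC13, CSE1L and RAN. The rule found 56 of the 60664 genes counted, made up of 30 nucleoporins, 25 transport receptors and adaptors, and RAN. Polyadenylated RNA was sequenced in 6 libraries, 3 from cells given an LNA GapmeR that targets lncMB3, a long non-coding RNA (knockdown, KD) and 3 from cells given a scrambled GapmeR (SCR). A GapmeR is an antisense oligonucleotide that directs RNase H to a matching transcript, and both groups carried one, so loss of lncMB3 and any other effect of the KD GapmeR cannot be told apart. The labels give neither the dose nor the time after transfection. Nor do they say whether replicate libraries are separate cultures, and the p-values rest on a spread between libraries that could be technical.

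Nuclear pore complexes are ringed channels through the nuclear envelope. Scaffold nucleoporins of the Y complex and the inner ring hold the channel, nucleoporins rich in phenylalanine-glycine repeats fill it, and others form filaments on the cytoplasmic side and a basket on the nuclear side. Importins bind cargo in the cytoplasm and release it in the nucleus when the GTPase RAN, loaded with GTP, binds them, whereas exportins bind cargo together with RAN-GTP and release it in the cytoplasm. In dividing cells, several of these proteins also act in mitosis.

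Total gene counts were 7765826, 19989654 and 19306711 in KD libraries 1 to 3, and 17072573, 20035834 and 17351552 in SCR libraries 1 to 3, so low genes were measured least precisely in KD library 1. Over all tested genes the KD and SCR libraries separated along the first principal component (53.3% of variance). No source used here gives an identifier for lncMB3, so the level of lncMB3 itself is not analysed here. Of the 9 Group 3 markers, OTX2 averaged 729 CPM in KD and 885 CPM in SCR, and MYC 1203 CPM in KD and 1177 CPM in SCR. Of the markers of other cells, 1 of 6 fibroblast (COL3A1), 1 of 4 endothelial (CDH5) and 1 of 5 immune markers (CD3E) were at 0 in all libraries. The same held for 1 of 4 epithelial (KRT14) and 2 of 6 glial markers (MBP and MOG). The summed fibroblast markers ran from 27.4 to 32.8 CPM in KD and from 35.2 to 38.8 CPM in SCR. The other sums ran from 0.886 to 1.82 CPM in KD and from 1.47 to 2.52 CPM in SCR for endothelial markers, from 1.17 to 2.45 CPM in KD and from 1.29 to 2.01 CPM in SCR for immune markers, and from 0.0521 to 0.260 CPM in KD and from 0.196 to 0.351 CPM in SCR for epithelial markers. Of the marker genes of other cells reported here, COL1A1 and DCN were called, both lower in KD. The part of any of these differences in the results on transport genes was not tested.

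Transport genes were mostly higher after the knockdown, by modest amounts. Of the 53 that had enough reads to be tested, 31 passed an adjusted p under 0.05 in edgeR's quasi-likelihood test with Benjamini-Hochberg adjustment over all 14673 genes. Across all tested genes 31.7% passed, and 33.6% with a filter of 1 CPM in 3 libraries. These shares are over genes of all levels and were not matched to the level of the transport genes. Whether a gene is called depends on its level as well as on its change. Higher in KD were 30 transport genes, against a background of 15.9%, and 1 was lower, NUP210, against a background of 15.9% too. The median log2 change of the 53 was 0.29, with 48 of 53 above 0, and over all tested genes the median was 0.00, with 7344 of 14673 above 0. No change was large: the log2 changes ran from -0.52 for NUP210 to 0.62 for IPO11. KD and SCR libraries did not overlap for 35 of the 53, which compares with 46.0% of all tested genes. All KD libraries lay above all SCR libraries for 34 of them, where 22.9% of all tested genes did so, and below for 1, where 23.1% did. At an unadjusted p under 0.05 in edgeR 34 passed, with NUP210 the one with a negative change. Over all 14673 tested genes 6241 passed at that threshold, in either direction. DESeq2 called 30 higher and 1 lower. With upper-quartile scaling 27 were higher and 1 lower, and 38.7% of the calls over all genes were higher in KD, against 49.99% with TMM scaling. The count of 31 was 16 without SCR library 2, 18 without KD library 3 and 33 without SCR library 1. The share called over all genes in these fits was 18.3%, 22.3% and 33.9%, against 31.7% with all libraries.

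**Figure D1:**
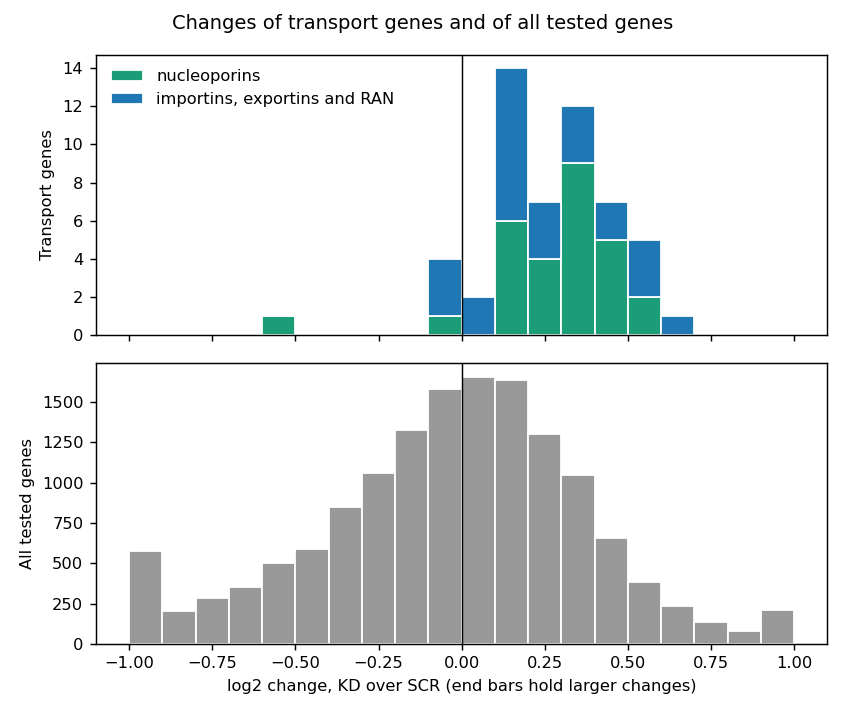
Histograms of the log2 change, KD over SCR, for the tested transport genes (top, nucleoporins and the importins, exportins and RAN stacked) and for all tested genes (bottom), with the number of genes on the y axes. The transport genes lie mostly to the right of 0, with a median of 0.29, whereas all tested genes are centred on 0.00; the end bars of the lower plot hold 434 genes below -1 and 156 above 1.

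Nucleoporins accounted for 18 of the 30 genes that rose, out of 28 tested, with a median log2 change of 0.32. Receptors and adaptors gave 11 of 24, with a median of 0.17, and RAN was the other one. The 3 members that were not tested were barely detected in either group. KPNA7, an importin alpha of the early embryo, had no counts. NUP62CL had 1 count, in SCR library 2. NUP210L, which is similar to NUP210, had 0, 0 and 8 counts in KD libraries 1 to 3 and 0, 4 and 1 in SCR libraries 1 to 3.

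The promoters of a few members that moved are shown with the motifs found in them. These members were picked by hand and do not stand for the others, whose motif counts are given below. The sequences are the 250 bases before the RefSeq start (GRCh38.p14), 5′ to 3′ on the gene's strand. Capitals mark matches to CACGTG (the E-box bound by MYC and related factors), CCGGAAG (ETS factors), GCGC followed by any base and TGCGC (NRF1) or CCAAT (NF-Y), searched on both strands.
KPNA2, chr17:68035485-68035734, plus strand: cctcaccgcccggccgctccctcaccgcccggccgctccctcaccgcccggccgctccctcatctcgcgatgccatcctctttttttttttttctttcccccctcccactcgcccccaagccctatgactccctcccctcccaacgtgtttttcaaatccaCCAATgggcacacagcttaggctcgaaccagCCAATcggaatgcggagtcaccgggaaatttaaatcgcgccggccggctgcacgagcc
RAN, chr12:130871816-130872065, plus strand: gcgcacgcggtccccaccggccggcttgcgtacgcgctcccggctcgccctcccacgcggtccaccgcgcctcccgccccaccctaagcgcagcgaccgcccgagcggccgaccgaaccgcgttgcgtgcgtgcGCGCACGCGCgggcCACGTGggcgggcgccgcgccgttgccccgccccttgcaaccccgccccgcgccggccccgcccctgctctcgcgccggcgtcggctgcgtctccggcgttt
IPO4, chr14:24188817-24189066, minus strand: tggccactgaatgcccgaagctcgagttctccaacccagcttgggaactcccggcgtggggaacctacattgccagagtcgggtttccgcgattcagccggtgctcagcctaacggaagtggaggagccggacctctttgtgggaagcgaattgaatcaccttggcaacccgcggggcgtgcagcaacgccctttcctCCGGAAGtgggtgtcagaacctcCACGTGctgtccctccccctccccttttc
NUP188, chr9:128947449-128947698, plus strand: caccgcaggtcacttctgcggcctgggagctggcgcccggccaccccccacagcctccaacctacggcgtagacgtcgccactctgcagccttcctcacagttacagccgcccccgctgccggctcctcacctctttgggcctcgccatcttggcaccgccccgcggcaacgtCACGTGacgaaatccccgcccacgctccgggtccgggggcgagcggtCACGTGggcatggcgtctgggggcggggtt
NUP210, chr3:13420323-13420572, minus strand: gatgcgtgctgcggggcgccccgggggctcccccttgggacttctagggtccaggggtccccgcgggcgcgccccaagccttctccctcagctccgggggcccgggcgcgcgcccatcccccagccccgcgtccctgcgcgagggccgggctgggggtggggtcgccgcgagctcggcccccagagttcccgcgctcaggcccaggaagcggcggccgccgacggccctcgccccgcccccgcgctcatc
The KPNA2 promoter holds 2 CCAAT boxes, which begin 89 and 58 bases before the start. The RAN promoter has an NRF1 match 116 bases and an E-box 102 bases before the start. An E-box begins 29 bases and an ETS match 52 bases before the start of IPO4, and E-boxes begin 77 and 30 bases before the start of NUP188. None of these letters occurs in the NUP210 window. The same holds for KPNA1, NDC1, NUP153, NUP155, RAE1 and RANBP2, which rose, so their absence does not set NUP210 apart.

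Promoter windows of 300 bases (250 before to 50 after the start) were matched for 50 of the 56 members. The E-box was in 7 of them (14%), and in 8.88% of 15842 protein-coding promoters and 7.43% of all 27305 promoters. The ETS letters were in 16 members (32.0%), in 14.2% of protein-coding promoters and in 10.7% of all. NRF1 letters were in 8 members (16.0%), in 8.57% of protein-coding promoters and in 6.28% of all. CCAAT was in 23 members (46.0%), in 36.4% of protein-coding promoters and in 35.7% of all. Of the 27 members that rose and have a window, 5 hold the E-box, 7 the ETS letters, 5 the NRF1 letters and 12 CCAAT, and of the 21 other tested members 2, 9, 3 and 9 hold them in that order. None of the 75 matches in members shares letters with a match to another of the 4 motifs. A match describes letters only, and the motifs were picked with the expression results known.

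The Y complex is the outer scaffold of the pore, and its subunits also sit at kinetochores in mitosis. All 8 members were tested, 4 rose and none fell, with a median log2 change of 0.28. SEH1L, which is also a subunit of the GATOR2 complex that signals amino acid supply, lies on chromosome 18 at 12947133 to 12987536 (GRCh38, plus strand). Its level was 115, 110.2 and 119 CPM in KD libraries 1 to 3, and 86.5, 79.0 and 71.0 CPM in SCR libraries 1 to 3. The groups did not overlap, and SCR library 3 was the lowest. SEH1L averaged 115 ± 4.58 CPM in KD and 78.8 ± 7.75 CPM in SCR (SD, n = 3 each), a 1.46-fold rise (log2 change 0.54 ± 0.09 SE, edgeR adjusted p = 0.000675). NUP107, a core subunit, rose by 0.42 on the log2 scale (adjusted p = 0.00494), NUP43 by 0.31 (adjusted p = 0.0165) and NUP85 by 0.29 (adjusted p = 0.0291). NUP43 and NUP85 lost their calls without KD library 3 (adjusted p = 0.0773 and 0.0816), SCR library 2 (0.0567 and 0.141) or SCR library 3 (0.0876 and 0.0929), and NUP85 also without KD library 2 (0.0925) and with upper-quartile scaling (0.0688). The log2 change was 0.27 for NUP37 (adjusted p = 0.0814), 0.17 for NUP160 (0.244), 0.17 for SEC13 (0.142) and 0.10 for NUP133 (0.397), none of which was called. SEC13 also works outside the pore, in the COPII vesicle coat. The summed level of the 8 genes was 853 ± 21.3 CPM in KD and 706 ± 58.6 CPM in SCR.

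Every member of the inner ring rose, 5 of 5, with a median log2 change of 0.37. NUP35 binds the pore membrane and lies on chromosome 2 at 183117513 to 183161680 (plus strand). It was measured at 30.0, 31.5 and 30.8 CPM in KD libraries 1 to 3, and at 23.0, 22.1 and 16.1 CPM in SCR libraries 1 to 3. The KD libraries were close to each other and all above the SCR libraries, of which library 3 was the lowest. NUP35 averaged 30.8 ± 0.704 CPM in KD and 20.4 ± 3.76 CPM in SCR (SD, n = 3 each), 1.51-fold higher (log2 change 0.59 ± 0.12 SE, edgeR adjusted p = 0.0025). The large scaffold subunits followed, with log2 changes of 0.38 for NUP93 (adjusted p = 0.00521), 0.37 for NUP155 (0.0108), 0.33 for NUP205 (0.0217) and 0.32 for NUP188 (0.0154). NUP93 anchors the channel nucleoporins to the ring. Without SCR library 2, NUP35 alone of the 5 was called, and the adjusted p of NUP93, NUP155, NUP188 and NUP205 was 0.0502, 0.0538, 0.107 and 0.109. Without KD library 3, NUP155, NUP188 and NUP205 lost their calls (adjusted p = 0.0687, 0.0667 and 0.127). NUP188 and NUP205 did so without KD library 1 (0.073 and 0.0622), and NUP155 and NUP205 without SCR library 3 (0.0578 and 0.0881). The 5 genes summed to 661 ± 43.2 CPM in KD and 516 ± 46.6 CPM in SCR.

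Of the central channel nucleoporins, which carry the phenylalanine-glycine repeats that transport receptors touch, 2 of 4 tested rose. NUP58 rose by 0.38 on the log2 scale (adjusted p = 0.00755), and its adjusted p was 0.0563 without KD library 3. Its partners in the channel trimer had log2 changes of 0.23 for NUP54 (adjusted p = 0.0686) and -0.05 for NUP62 (adjusted p = 0.628, 95% interval -0.22 to 0.11). NUP98, on chromosome 11 at 3671083 to 3797792 (minus strand), encodes a precursor that is cut into NUP98 and the Y complex subunit NUP96, and gene counts do not separate the products. NUP98 had 106, 87.8 and 109.7 CPM in KD libraries 1 to 3, against 88.9, 78.9 and 84.0 CPM in SCR libraries 1 to 3. KD library 2 lay below SCR library 1, so the groups overlapped. The mean was 101 ± 11.7 CPM in KD and 83.9 ± 4.99 CPM in SCR (SD, n = 3 each), with a log2 change of 0.27 ± 0.10 SE just past the threshold (edgeR adjusted p = 0.0449). NUP98 missed it without KD library 1 (adjusted p = 0.141), KD library 3 (0.211), SCR library 2 (0.191) or SCR library 3 (0.102), with upper-quartile scaling (0.101), with limma-voom (0.0527) and with a filter of 1 CPM in 3 libraries (0.0527).

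Membrane nucleoporins moved in both directions. NUP210, a large transmembrane nucleoporin that mouse cells need for muscle and neural differentiation, was the one transport gene that fell. It lies on chromosome 3 at 13316235 to 13420309 (minus strand). NUP210 was counted at 78.7, 67.3 and 72.0 CPM in KD libraries 1 to 3, and at 99.2, 101 and 112 CPM in SCR libraries 1 to 3. Every KD library was below every SCR library. The average was 72.7 ± 5.71 CPM in KD and 104 ± 6.69 CPM in SCR (SD, n = 3 each), so NUP210 was 1.43-fold lower in KD (log2 change -0.52 ± 0.09 SE, 95% interval -0.71 to -0.33, edgeR adjusted p = 0.000818). NUP210 was called under all the alternatives tried. NDC1, a transmembrane protein that takes part in pore assembly, rose by 0.33 on the log2 scale (adjusted p = 0.0108), and lost its call without KD library 3 (0.066), SCR library 2 (0.0681) or SCR library 3 (0.052). POM121 had a log2 change of 0.15 (adjusted p = 0.226). The sum of the 4 genes was 300.1 ± 13.7 CPM in KD and 293 ± 11.4 CPM in SCR.

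On the cytoplasmic face 4 of 5 genes rose, with a median log2 change of 0.37. RANBP2 forms the cytoplasmic filaments, binds RAN and RANGAP1 and is a SUMO ligase. The gene lies on chromosome 2 at 108719481 to 108785811 (plus strand). Its level was 263, 224 and 274 CPM in KD libraries 1 to 3, against 204, 181 and 165 CPM in SCR libraries 1 to 3. All KD libraries were above all SCR libraries. RANBP2 averaged 254 ± 26.3 CPM in KD and 183 ± 19.8 CPM in SCR (SD, n = 3 each), 1.38-fold higher (log2 change 0.47 ± 0.10 SE, edgeR adjusted p = 0.00336). The 7 RGPD genes, near-copies of RANBP2 that can share its reads, summed to 56.8 CPM in KD and 45.6 CPM in SCR, so how reads were divided among them is uncertain.

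NUP42, a filament nucleoporin with a role in mRNA export, lies on chromosome 7 at 23181827 to 23201011 (plus strand). NUP42 gave 18.1, 18.2 and 15.5 CPM in KD libraries 1 to 3, against 13.3, 12.5 and 11.7 CPM in SCR libraries 1 to 3. KD library 3 was the lowest of its group and still above all SCR libraries. The mean was 17.3 ± 1.54 CPM in KD and 12.5 ± 0.777 CPM in SCR (SD, n = 3 each), 1.37-fold higher (log2 change 0.46 ± 0.11 SE, edgeR adjusted p = 0.00801). NUP88 rose by 0.37 on the log2 scale (adjusted p = 0.00785) and RAE1, an mRNA export factor that binds NUP98, by 0.33 (adjusted p = 0.0115). Both lost their calls without SCR library 2 (0.0522 for NUP88 and 0.0756 for RAE1), and RAE1 without SCR library 3 (0.0576). For NUP214, the partner of NUP88, the log2 change was 0.11 (adjusted p = 0.467). The 5 cytoplasmic genes summed to 484 ± 27.6 CPM in KD and 373 ± 36.9 CPM in SCR.

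In the nuclear basket NUP50 and NUP153 rose and TPR was not called. NUP50 binds importin alpha and helps release its cargo. The gene is on chromosome 22 at 45163841 to 45188015 (plus strand) and had 185, 153 and 184 CPM in KD libraries 1 to 3, against 144, 124 and 120.4 CPM in SCR libraries 1 to 3. The groups did not overlap, with KD library 2 the lowest of its group. NUP50 averaged 174 ± 17.8 CPM in KD and 129.6 ± 12.6 CPM in SCR (SD, n = 3 each), 1.34-fold higher (log2 change 0.42 ± 0.10 SE, edgeR adjusted p = 0.00518).

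NUP153 tethers the basket to the pore and lies on chromosome 6 at 17615035 to 17706834 (minus strand). It was at 154, 131 and 168 CPM in KD libraries 1 to 3, and at 127, 105 and 106 CPM in SCR libraries 1 to 3. Again KD library 2 was the lowest of its group, and the groups did not overlap. NUP153 averaged 151 ± 18.5 CPM in KD and 113 ± 12.2 CPM in SCR (SD, n = 3 each), 1.34-fold higher (log2 change 0.42 ± 0.10 SE, edgeR adjusted p = 0.00771). Its adjusted p was 0.0558 without KD library 3 and 0.0503 without SCR library 2.

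TPR, the protein that builds the basket's strands, lies on chromosome 1 at 186311652 to 186375693 (minus strand). Its counts came to 435, 405 and 437 CPM in KD libraries 1 to 3, and to 397, 398 and 375 CPM in SCR libraries 1 to 3. The KD libraries were all above the SCR libraries, but the difference was small. TPR averaged 426 ± 17.9 CPM in KD and 389.7 ± 12.7 CPM in SCR (SD, n = 3 each), a log2 change of 0.13 ± 0.08 SE with a 95% interval of -0.04 to 0.30 (edgeR adjusted p = 0.243).

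**Figure D2:**
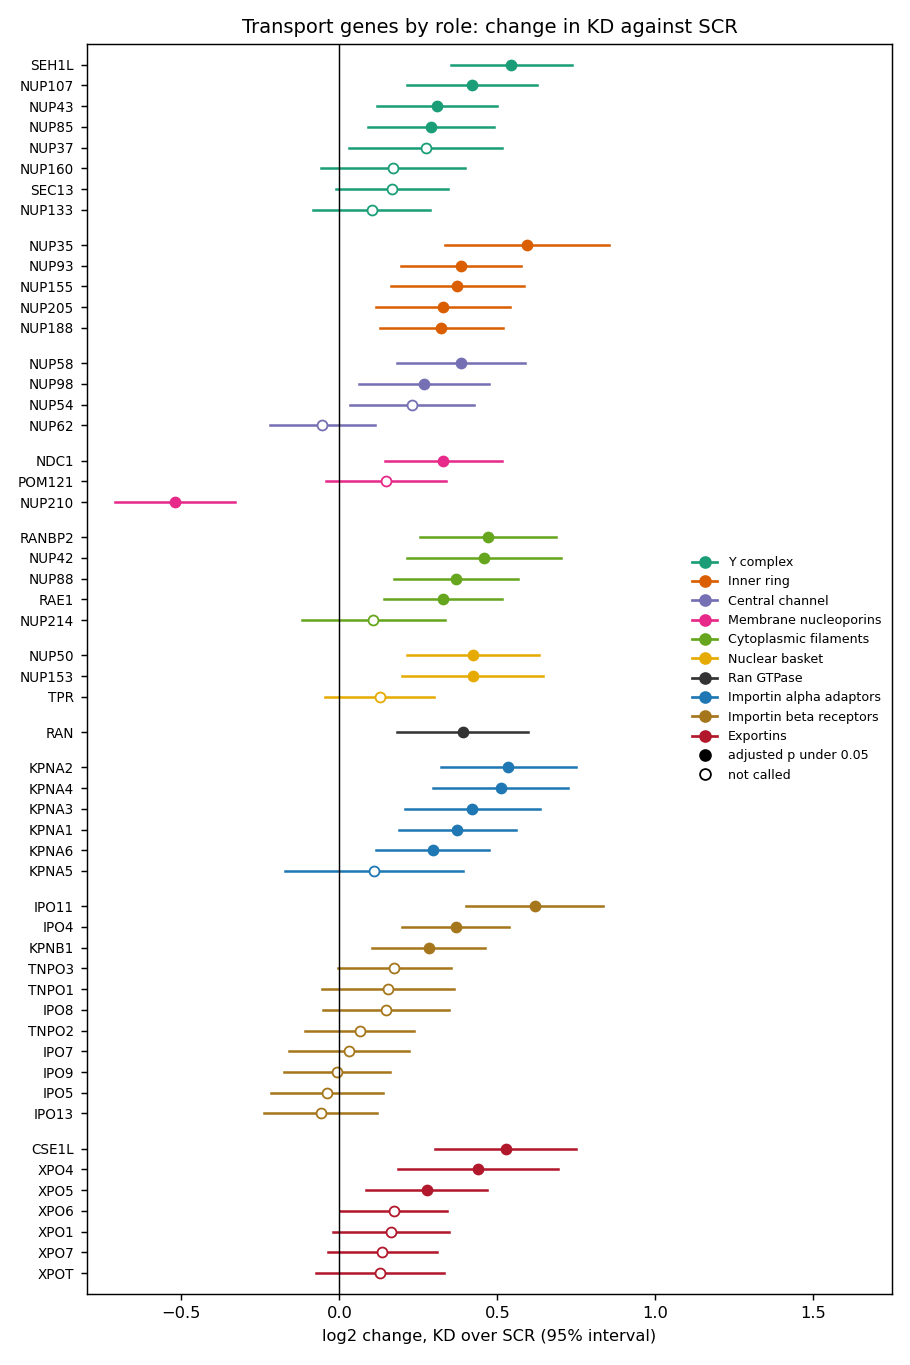
Log2 change, KD over SCR, of each tested transport gene (x axis), with genes on the y axis grouped and coloured by role; points are estimates, bars 95% intervals, filled points have an adjusted p under 0.05 and open points were not called. The 5 inner ring genes and 5 of 6 importin alpha genes are filled to the right of 0, NUP210 is the one filled point to the left, and 8 of 11 importin beta genes are open.

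The importin alpha adaptors, which read the classical nuclear localisation signal and hand the cargo to importin beta, rose in 5 of 6 tested, with a median log2 change of 0.40. KPNA2 had the highest level of them and is often abundant in tumours. It lies on chromosome 17 at 68035519 to 68046842 (plus strand). KPNA2 had 856, 872 and 823 CPM in KD libraries 1 to 3, and 681, 552 and 528 CPM in SCR libraries 1 to 3. KD and SCR libraries were apart, and SCR library 1 was the SCR library nearest to the KD ones. The mean was 850.2 ± 25.2 CPM in KD and 587 ± 82.0 CPM in SCR (SD, n = 3 each), 1.45-fold higher (log2 change 0.53 ± 0.10 SE, edgeR adjusted p = 0.00143).

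KPNA4, on chromosome 3 at 160494995 to 160565588 (minus strand), belongs with KPNA3 to another subfamily of importin alpha. Its level was 90.4, 72.8 and 89.3 CPM in KD libraries 1 to 3, against 63.9, 58.1 and 54.7 CPM in SCR libraries 1 to 3. Every KD library was above every SCR library. KPNA4 averaged 84.2 ± 9.85 CPM in KD and 58.9 ± 4.66 CPM in SCR (SD, n = 3 each), 1.42-fold higher (log2 change 0.51 ± 0.10 SE, edgeR adjusted p = 0.00193). KPNA3 rose by 0.42 on the log2 scale (adjusted p = 0.00594), KPNA1 by 0.37 (0.00522) and KPNA6 by 0.30 (0.0151). KPNA6 lost its call without KD library 1 (0.0535), KD library 3 (0.0796), SCR library 2 (0.0953) or SCR library 3 (0.0548). For KPNA5, the tested transport gene with the lowest level per length, the log2 change was 0.11 (adjusted p = 0.563). The 7 genes summed to 1394, 1358 and 1393 CPM in KD libraries 1 to 3 and to 1125, 949.6 and 918 CPM in SCR libraries 1 to 3.

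Importin beta receptors, the carriers that cross the pore with the cargo, were more mixed: 3 of 11 rose, none fell, and the median log2 change was 0.15. IPO11 had the largest rise among all transport genes. It is known for importing ubiquitin-conjugating enzymes and lies on chromosome 5 at 62403972 to 62628582 (plus strand). IPO11 was measured at 67.9, 65.7 and 78.9 CPM in KD libraries 1 to 3, and at 52.0, 43.7 and 43.0 CPM in SCR libraries 1 to 3. All KD libraries were above all SCR libraries. The average was 70.8 ± 7.04 CPM in KD and 46.2 ± 5.03 CPM in SCR (SD, n = 3 each), 1.54-fold higher (log2 change 0.62 ± 0.10 SE, edgeR adjusted p = 0.000644). Its exons share 428 bases with KIF2A on the same strand, which was at 124 CPM in KD and 134 CPM in SCR, so reads there cannot be assigned to either with certainty. IPO4, a receptor for histones and ribosomal proteins, had 188, 191 and 185 CPM in KD libraries 1 to 3, against 149.7, 137 and 150.1 CPM in SCR libraries 1 to 3 (log2 change 0.37 ± 0.08 SE, adjusted p = 0.00347). The groups did not overlap for IPO4.

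KPNB1, the importin beta that works with importin alpha, is on chromosome 17 at 47649476 to 47685505 (plus strand). KPNB1 was at 949.5, 896 and 961 CPM in KD libraries 1 to 3, and at 806, 772 and 730.2 CPM in SCR libraries 1 to 3. The groups did not overlap, with a smaller distance between them than for KPNA2. The mean was 936 ± 34.7 CPM in KD and 769 ± 38.0 CPM in SCR (SD, n = 3 each), 1.22-fold higher (log2 change 0.28 ± 0.08 SE, edgeR adjusted p = 0.0196). KPNB1 was not called without KD library 1 (adjusted p = 0.068), KD library 3 (0.0842), SCR library 2 (0.0817) or SCR library 3 (0.0871).

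The other 8 receptors of this class were not called. IPO5, a carrier of ribosomal proteins and histones, had 1733, 1734 and 1812 CPM in KD libraries 1 to 3 and 1797, 1848 and 1778 CPM in SCR libraries 1 to 3. The groups overlapped for IPO5, with a log2 change of -0.04 (adjusted p = 0.752, 95% interval -0.22 to 0.14). The log2 change was 0.03 for IPO7 (adjusted p = 0.82, interval -0.16 to 0.22), -0.01 for the histone importin IPO9 (0.957, -0.18 to 0.16) and -0.06 for IPO13, which carries cargo in both directions (0.621, -0.24 to 0.12). The upper bounds of these 4 intervals, from 0.12 to 0.22, were below the smallest log2 change called higher among transport genes, 0.27 for NUP98. The interval of NUP98 itself, 0.06 to 0.47, overlapped all 4, and the difference was not tested. TNPO1, the receptor of many RNA-binding proteins, had 0.15 (adjusted p = 0.244), TNPO2 0.06 (0.576), TNPO3, which imports splicing factors rich in serine and arginine, 0.17 (0.127) and IPO8 0.15 (0.248). The 11 genes summed to 4535 ± 191 CPM in KD and 4284 ± 73.8 CPM in SCR.

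Of the 7 exportins 3 rose and none fell, with a median log2 change of 0.17. CSE1L returns importin alpha to the cytoplasm, and lies on chromosome 20 at 49046246 to 49096960 (plus strand). It had 412, 464 and 451 CPM in KD libraries 1 to 3, against 358, 299 and 265 CPM in SCR libraries 1 to 3. The groups did not overlap, and SCR library 3 was the lowest. CSE1L averaged 442 ± 26.6 CPM in KD and 307 ± 46.9 CPM in SCR (SD, n = 3 each), 1.44-fold higher (log2 change 0.53 ± 0.10 SE, edgeR adjusted p = 0.00212).

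XPO4, an exportin with SMAD3 among its cargo, on chromosome 13 at 20777329 to 20903048 (minus strand), had 87.3, 70.9 and 101 CPM in KD libraries 1 to 3, and 71.4, 58.2 and 61.4 CPM in SCR libraries 1 to 3. KD library 2 was slightly below SCR library 1, so the groups overlapped. XPO4 averaged 86.3 ± 14.9 CPM in KD and 63.7 ± 6.85 CPM in SCR (SD, n = 3 each), 1.36-fold higher (log2 change 0.44 ± 0.12 SE, edgeR adjusted p = 0.0122). Its adjusted p was 0.0916 without KD library 3 and 0.0694 without SCR library 2. XPO5, which exports precursor microRNAs, rose by 0.28 on the log2 scale (adjusted p = 0.0302). XPO5 lost its call without KD library 1 (0.122), KD library 3 (0.101), SCR library 2 (0.176) or SCR library 3 (0.0775) and with upper-quartile scaling (0.0704).

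XPO1, also called CRM1, exports proteins with a leucine-rich signal and is the target of the drug selinexor. It is on chromosome 2 at 61477849 to 61538626 (minus strand). XPO1 had 512, 474 and 549 CPM in KD libraries 1 to 3, and 479, 449.9 and 441 CPM in SCR libraries 1 to 3. KD library 2 was below SCR library 1, so the groups overlapped. The average was 512 ± 37.4 CPM in KD and 457 ± 19.8 CPM in SCR (SD, n = 3 each), with a log2 change of 0.16 ± 0.09 SE that did not pass the test (edgeR adjusted p = 0.158, 95% interval -0.02 to 0.35). It was called without KD library 2 (adjusted p = 0.04996). The log2 change was 0.17 for XPO6, the exportin of actin (adjusted p = 0.115), 0.14 for XPO7 (0.216) and 0.13 for the transfer RNA exportin XPOT (0.321). The 7 exportins summed to 1958 ± 103 CPM in KD and 1642 ± 96.3 CPM in SCR.

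RAN, the GTPase that gives transport its direction, rose as well. The gene lies on chromosome 12 at 130871879 to 130877678 (plus strand). RAN had 780.2, 865 and 765 CPM in KD libraries 1 to 3, against 679, 621 and 541 CPM in SCR libraries 1 to 3. No SCR library reached a KD library. RAN averaged 803 ± 54.1 CPM in KD and 613 ± 69.4 CPM in SCR (SD, n = 3 each), 1.31-fold higher (log2 change 0.39 ± 0.10 SE, edgeR adjusted p = 0.00812).

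**Figure D3:**
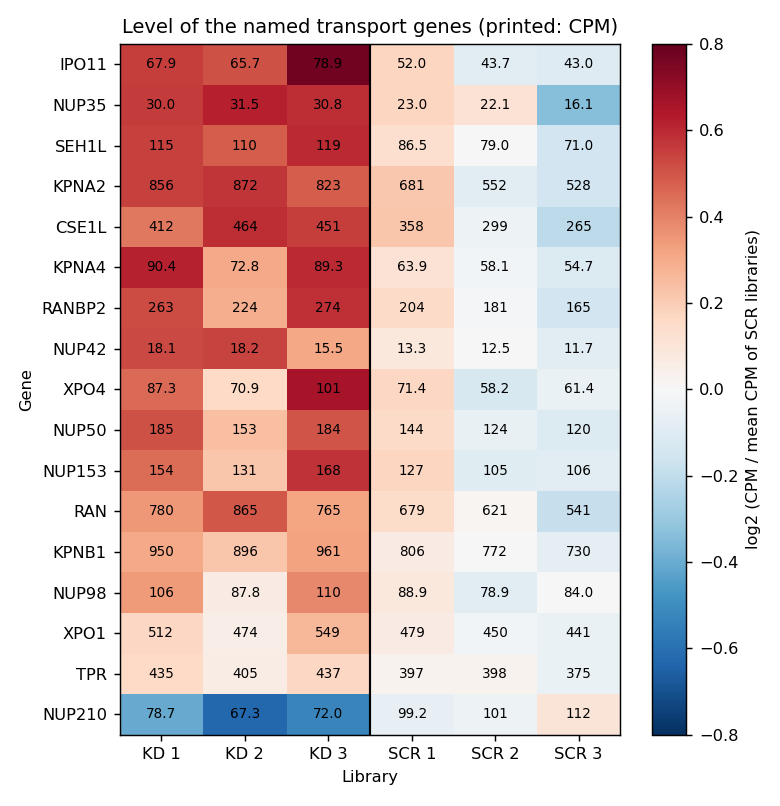
Level of the 17 transport genes described in full (rows) in each library (columns, KD then SCR), with CPM printed in the cells and colour showing log2 of CPM over the mean of the SCR libraries. NUP210 is the one gene lower in all KD libraries, from 67.3 to 78.7 CPM in KD and from 99.2 to 112 CPM in SCR, and SCR library 1 is the SCR library closest to KD for most of the others.

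Summed over all 56 genes, the machinery came to 12261, 11782 and 12627 CPM in KD libraries 1 to 3 and 11077, 10399.6 and 10042 CPM in SCR libraries 1 to 3. Every KD library was above every SCR library, at 1.16 times the SCR mean. By role, the ratio of KD to SCR means ran from 1.02 for the membrane nucleoporins to 1.39 for the importin alpha adaptors. In between were importin beta receptors (1.06), the central channel (1.11), exportins (1.19), the basket (1.19), the Y complex (1.21), the inner ring (1.28), the cytoplasmic filaments (1.30) and RAN (1.31). In bulk RNA, a change in the share of cells of a type and a change in RNA per cell cannot be told apart.

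**Figure D4:**
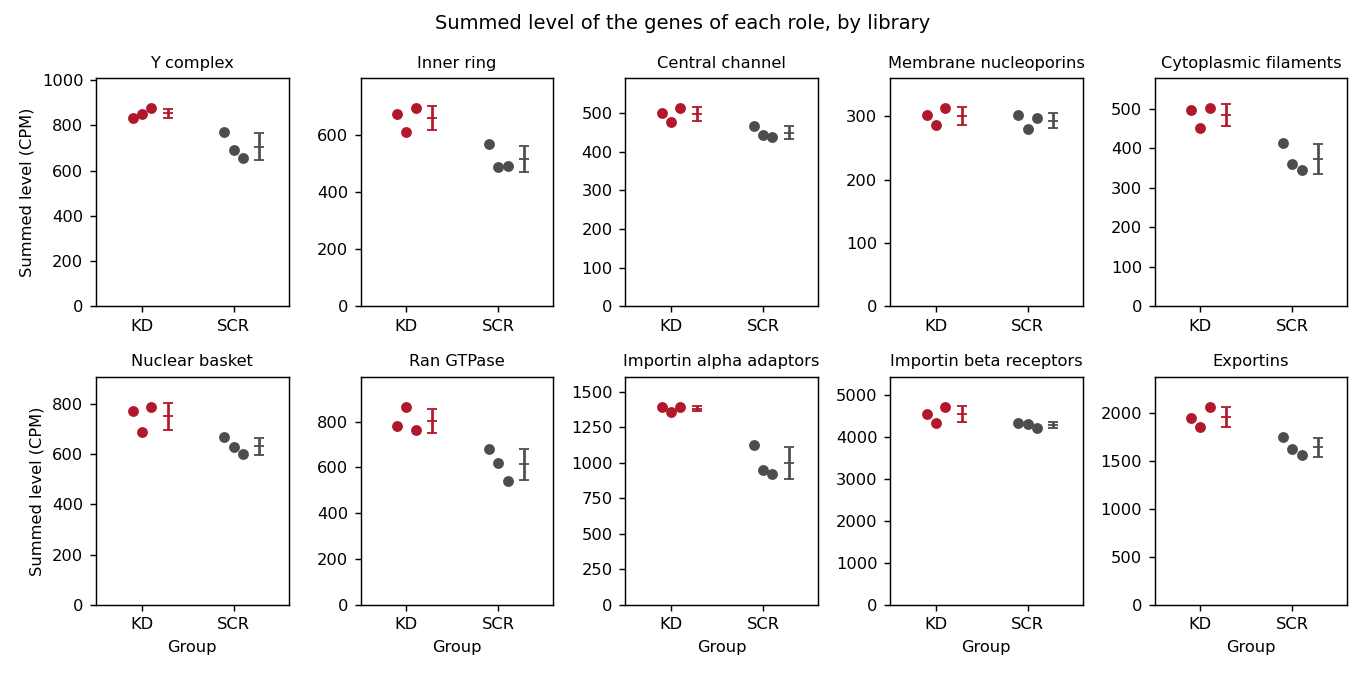
Summed CPM of the genes of each role in each library (points), KD left of SCR, 1 panel per role with a y axis from 0. The importin alpha sum is from 1358 to 1394 CPM in KD and from 918 to 1125 CPM in SCR, whereas the membrane nucleoporin sums of the groups overlap.

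The libraries of a group were not at one level for these genes. The mean log2 CPM of the 53 tested genes, relative to the mean of the 6 libraries, was 0.14, 0.06 and 0.19 in KD libraries 1 to 3 and -0.03, -0.16 and -0.20 in SCR libraries 1 to 3. SCR library 1 was the highest SCR library for 29 of the 30 genes that rose and for 42 of all 53. KD library 2 was the lowest KD library for 17 of the 30 and for 33 of the 53. SCR library 3 was the lowest of the 6 libraries for 30 of the 53. A similar order was seen over all tested genes, so it is not particular to transport genes. Along the first principal component SCR libraries 1 to 3 lay at -14.5, -30.7 and -35.4, with SCR library 1 nearest to the KD libraries. KD library 2, at 20.8, was the KD library nearest to the SCR ones. The share of all tested genes with each library highest or lowest is not given here. Of the 31 calls, 15 were made without each library in turn: CSE1L, IPO11, IPO4, KPNA1, KPNA2, KPNA3, KPNA4, NUP107, NUP210, NUP35, NUP42, NUP50, RAN, RANBP2 and SEH1L.

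Levels per length were compared in TPM, computed from the counts and the GENCODE exon length. That length joins all annotated exons of a gene (4825 bases for RAN and 11417 for KPNA5) and can exceed that of the transcript expressed. The order of genes depends on this choice, and other lengths were not tried. KPNA2 was highest in KD, at 916 ± 16.5 TPM in KD and 662 ± 73.3 TPM in SCR. IPO5 was the highest in SCR and came second in KD, at 616 ± 33.8 TPM in KD and 663 ± 20.6 TPM in SCR, and in SCR it and KPNA2 did not differ beyond their spread. They were followed by RAN, at 563 ± 17.9 TPM in KD and 450.2 ± 37.4 TPM in SCR. KPNB1 had 413 ± 29.2 TPM in KD and 355 ± 6.73 TPM in SCR, and CSE1L 394 ± 20.1 TPM in KD and 286 ± 34.9 TPM in SCR. In KD these 2 neighbours did not differ beyond their spread. NUP210 was at 30.1 ± 3.13 TPM in KD and 45.1 ± 4.26 TPM in SCR, which put it at rank 43 in KD and rank 35 in SCR. KPNA5 was the lowest, at 4.98 ± 1.03 TPM in KD and 4.87 ± 0.290 TPM in SCR. The 8 highest genes were carriers, adaptors or RAN in both groups. The first nucleoporin was TPR in KD, at 117 TPM in KD and 112 TPM in SCR, and NUP62 in SCR, at 116 TPM in KD and 127 TPM in SCR.

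**Figure D5:**
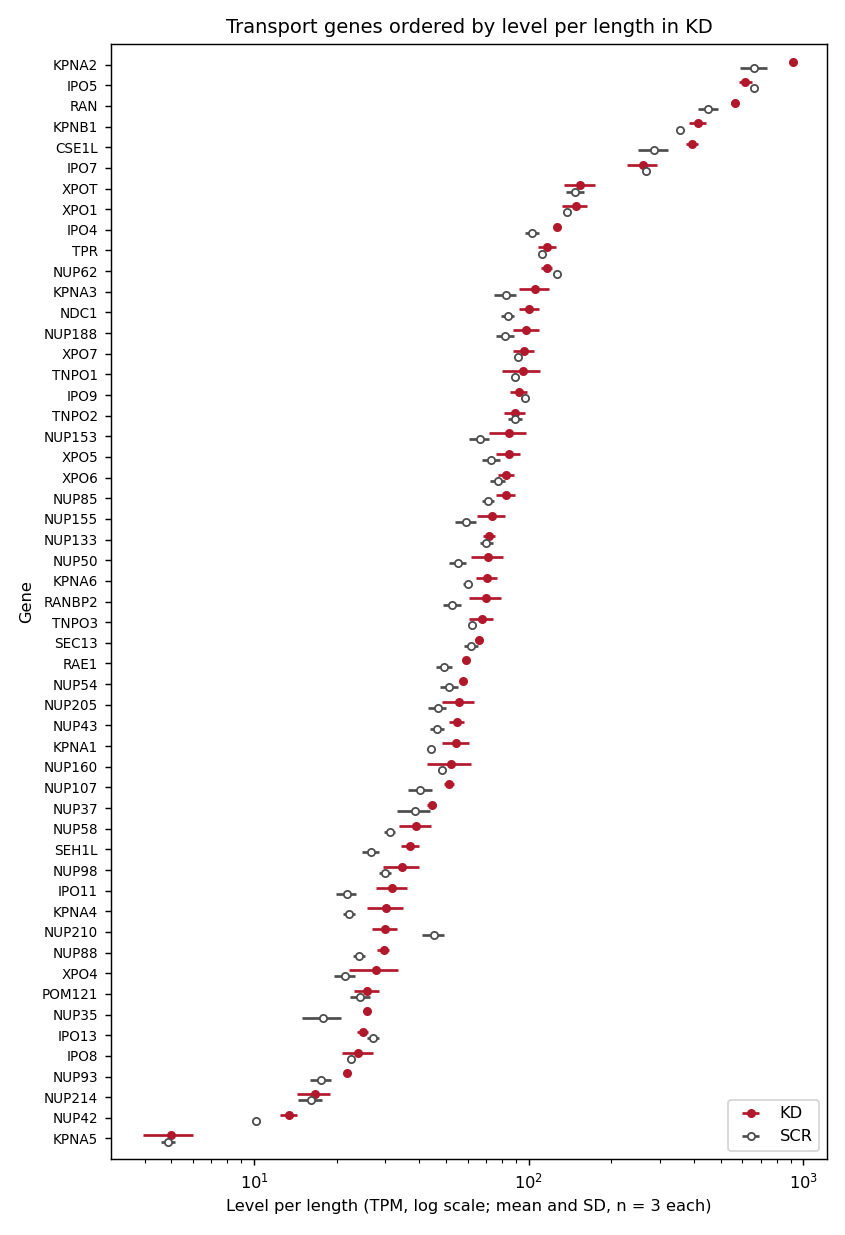
Level per length of the tested transport genes (TPM, log axis, mean and SD of 3 libraries each), with KD as filled and SCR as open points, ordered by the level in KD. KPNA2, at 916 TPM in KD and 662 TPM in SCR, is at one end and KPNA5, at 4.98 TPM in KD and 4.87 TPM in SCR, at the other.

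Other genes of the pathway, which the symbols did not pick, were also mostly higher. These lists were chosen with earlier results of these data known, so they are not independent of the transport genes. Across 4 lists, of other pore components, regulators of the Ran cycle, transport adaptors and mRNA export factors, 23 of 37 genes rose (62.2%) and none fell, with a median log2 change of 0.31. Of all tested genes 15.9% were higher and 15.9% lower. At an unadjusted p under 0.05 in edgeR 24 passed, none of them with a negative change. That threshold was passed by 6241 of all 14673 tested genes, in either direction. The count of 23 was 14 without SCR library 2 and 14 without SCR library 3, fits in which the share called over all genes was 18.3% and 19.3%, against 31.7% with all libraries.

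Of the Ran cycle regulators 5 of 6 rose. RANGAP1, which triggers GTP hydrolysis by RAN at the cytoplasmic filaments, averaged 405 ± 11.0 CPM in KD and 291 ± 29.5 CPM in SCR (log2 change 0.47, edgeR adjusted p = 0.00148). RANBP1, its cofactor, rose by 0.40 (adjusted p = 0.00496), RCC1, the exchange factor on chromatin, by 0.31 (0.0117), and NUTF2, which carries RAN back into the nucleus, by 0.28 (0.0247). Among the other pore components AHCTF1, also called ELYS, which seeds pore assembly on chromatin, averaged 227 ± 27.3 CPM in KD and 147 ± 16.4 CPM in SCR (log2 change 0.63, adjusted p = 0.000757). POM121C, GLE1 and AAAS were not called, with log2 changes of 0.15, 0.08 and -0.04 (adjusted p = 0.28, 0.48 and 0.782). POM121C is a near-copy of POM121 and can share its reads.

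Transport adaptors rose in 4 of 6. NCBP1, of the cap-binding complex, averaged 117 ± 4.80 CPM in KD and 80.1 ± 10.4 CPM in SCR (log2 change 0.55, edgeR adjusted p = 0.00097), and PHAX, the adaptor for export of small nuclear RNA, 66.9 ± 0.389 CPM in KD and 44.7 ± 7.51 CPM in SCR (0.58, adjusted p = 0.00127). NCBP2 rose by 0.39 on the log2 scale (0.00443) and NMD3, the XPO1 adaptor of the large ribosomal subunit, by 0.35 (0.0118). Of the mRNA export factors 13 of 21 rose, with a median of 0.27. The export receptor subunits NXT1 and NXF1 rose by 0.68 (adjusted p = 0.000838) and 0.46 (0.00145), the helicase DDX39A by 0.53 (0.000731) and THOC1, of the THO complex, by 0.47 (0.00199).

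Among genes of the nuclear lamina and inner membrane 1 of 11 rose and 1 fell, with a median log2 change of 0.16. The shares over all tested genes were 15.9% higher and 15.9% lower. LEMD3 rose by 0.31 (edgeR adjusted p = 0.0173), and SUN2, which links the lamina to the cytoskeleton, fell by 0.39 on the log2 scale (0.00378). LMNB2 had a log2 change of 0.19 (0.0906) and BANF1 of 0.20 (0.0925). The difference between this list and the transport genes was not tested.

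Cell cycle genes were read in the same fit. Of 17 G1/S genes 5 rose and 1 fell, with a median log2 change of 0.08. CCNE1, CDC6 and CCNE2 rose by 0.42 (edgeR adjusted p = 0.00291), 0.44 (0.011) and 0.40 (0.0165), and the licensing factor CDT1 fell by 0.46 (0.00998). Of 21 G2/M genes 3 rose and 1 fell, with a median of 0.11. CCNB1, CDC20 and AURKA rose by 0.48 (0.000945), 0.33 (0.00892) and 0.25 (0.0303), and TPX2, a spindle factor that importin alpha holds inactive, fell by 0.35 (0.00881). These 3 are 14.3% of the list, near the 15.9% of all tested genes that were higher, and the 5 G1/S genes that rose are 29.4% of theirs. The summed G1/S genes ran from 3248 to 3361 CPM in KD and from 2966 to 3189 CPM in SCR, with every KD library above every SCR library. The summed G2/M genes ran from 5446 to 5652 CPM in KD and from 5402 to 5586 CPM in SCR, and the groups overlapped. Their part in the changes of transport genes was not tested.

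Of the Group 3 markers 6 of 9 fell and 1 rose, with a median log2 change of -0.44. Over all tested genes 15.9% were lower and 15.9% higher. NEUROD1 fell by 1.07 on the log2 scale (edgeR adjusted p = 3.26e-05), IMPG2 by 0.59 (0.000414) and EYS by 0.81 (0.00334), whereas GABRA5 rose by 0.41 (0.00384). CRX, OTX2 and NRL fell too, and the change of MYC was 0.03 (adjusted p = 0.826).

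Some members share exon bases with genes on the opposite strand, and no source used here says whether counting used strand. NUP88 overlaps RABEP1, which was at 59.1 CPM in KD and 47.7 CPM in SCR, and RPAIN, at 18.0 CPM in KD and 16.1 CPM in SCR. NUP43 overlaps PCMT1, at 91.9 CPM in KD and 75.1 CPM in SCR, and XPO5 overlaps POLR1C, at 40.3 CPM in KD and 26.5 CPM in SCR. NUP62 overlaps ATF5, at 35.1 CPM in KD and 38.4 CPM in SCR, and NUP188 overlaps SH3GLB2, at 21.9 CPM in KD and 28.4 CPM in SCR. The partners of NUP88, NUP43 and XPO5 had a higher mean in KD and those of NUP62 and NUP188 a lower one, and the values of all these members are uncertain as far as reads were shared. The 29 genes that match the symbols but are not protein-coding, mostly pseudogenes, summed to 13.2 CPM in KD and 14.8 CPM in SCR.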

How the data were processed

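Gene counts of 6 libraries (3 KD, 3 SCR) were used as the authors deposited them. Per the submitters' processing notes, the tools were STAR 2.7.9a, RSEM and Trim Galore 0.6.4, and the build was GRCh38.p13; no source used here gives the annotation or the strand setting. Deposited counts are whole numbers and were read as rounded RSEM counts, which share a read among matching genes. Per the labels, RNA came from a miRNeasy Micro extraction and went into TruSeq Stranded mRNA libraries.

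The 44 pseudoautosomal copies were added to their partners, and symbols and GENCODE release 29 coordinates (1-based) were joined by gene identifier; 85 symbols matched the rule and 29 of them were not protein-coding. edgeR 4.0.16 (R 4.3.3) was run with TMM scaling after filterByExpr and its quasi-likelihood F test, KD over SCR with no covariate, 2-sided, Benjamini-Hochberg over 14673 genes, threshold 0.05. On simulated data, edgeR recovered 56 of 100 genes changed 1.5-fold and 76 of 100 changed 2-fold. Of its 143 calls there, 11 were false. Few of the 14673 genes were changed in that simulation, whereas the real fit made 4657 calls, so its adjusted threshold was stricter. These rates therefore do not give the power of the real test. Changes under 1.5-fold, which most called transport genes had, were not simulated. SE was taken as the log2 change over the root of the F statistic; CPM uses TMM-scaled library sizes. Intervals are at 95%, are for the log2 change between the groups, and rest on the spread between libraries. The biological coefficient of variation was 8.91%. Replicates were not duplicates of each other (chi-square per degree of freedom 2.81 to 16.5).

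The members and lists were chosen with earlier results of these data known. Described in full are RAN, KPNB1, KPNA2, XPO1, CSE1L, NUP98, RANBP2, TPR and the 12 called members with the largest change and a mean of at least 1 CPM; in other lists, the 4 genes with the smallest adjusted p. Others are named as members called or not called, or as partners that share reads. The lists were other pore components, Ran cycle regulators, transport adaptors, mRNA export factors, lamina, G1/S, G2/M, Group 3, fibroblast, endothelial, immune, epithelial and glial genes. The summed level of the glial list is not reported here. Alternatives were upper-quartile and RLE scaling, no filter on low counts, 1 CPM in 3 libraries, DESeq2 1.42.0, voom in limma 3.58.1, a replicate block, each library left out, and an adjusted p under 0.01.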

Additional observations from a re-analysis of the deposited data

How the results depend on the processing

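Of the 31 transport genes called, 15 were called under each of the 13 other fits (the stricter threshold apart), and 0 of the 31 changed sign. Leaving out each library in turn gave from 16 to 33 calls, with 15 to 32 higher and 1 lower (NUP210), and without KD library 3 there were 18 (17 higher). Over all genes this gave from 2704 to 5114 calls, from 1264 to 2604 higher and from 1440 to 2510 lower, with 2891 (1420 higher and 1471 lower) without SCR library 3, and on the 4 companion lists from 14 to 25. Each of these fits holds 5 libraries. At an adjusted p under 0.01 there were 19 transport genes (18 higher), 2459 of all genes (1190 higher, 1269 lower) and 13 companion genes. Upper-quartile scaling called 28 transport genes and 16 companion genes and moved the median of all genes to -0.06. DESeq2 and RLE scaling called 31 transport genes each, no filter 31, limma-voom 30 and the 1 CPM filter 30. The median log2 change of transport genes was between 0.23 and 0.35 in all of these fits. The changes that reversed were in genes not called: IPO7 with upper-quartile scaling (-0.028, adjusted p = 0.835) and without KD library 3 (adjusted p = 0.851), IPO9 without KD library 2 (0.814) and KPNA5 without KD library 3 (0.71). Leaving out each library in turn, these changes ran from -0.032 to 0.11 for IPO7, from -0.035 to 0.027 for IPO9 and from -0.075 to 0.21 for KPNA5, and the cause was not tested. NUP160, NUP37, NUP54 and XPO1 were called in at least 1 of the other fits. The replicate numbers did not pair the libraries (correlations of same-numbered deviations 0.0315, 0.0963 and -0.0334), and only KD and SCR libraries 2 were best correlated with their own number in both directions; with a replicate block 32 transport genes (31 higher), 4742 of all genes and 22 companion genes were called. KPNA7, NUP62CL and NUP210L had too few counts to be tested, and at this depth low expression and lack of expression cannot be told apart.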
